A study of Drosophila melanogaster with 9 samples.

Results

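Chromatin accessibility was described at 7 genes of nuclear, piRNA-guided transcriptional silencing and the heterochromatin machinery it recruits: Panx, arx, mael, egg, wde, Su(var)2-10 and the gene of HP1a. Su(var)205's product is HP1a, and the gene is called HP1a below. The 7 genes were chosen by name, and all 7 were found among the 18277 annotated genes. Every peak that overlapped a gene body or the 2 kb on either side of it was taken, which gave 378 peaks over the 9 libraries. ATAC-seq measures where a transposase can cut DNA, so that a peak marks chromatin open enough to be cut.

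The libraries came from Δl(3)mbt OSCs (2 libraries), vas-GFP ovaries (3 libraries, with 6, 10 and 30 ovaries) and w1118 ovaries (2 libraries of 6 ovaries each), and from wild-type OSCs (2 libraries), to which the other OSCs and the ovaries were compared. OSCs are a cultured female line of ovarian somatic cells, free of germ cells, and the Δl(3)mbt cells are 1 mutant line of it that lacks the repressor L(3)mbt, so that its libraries repeat the assay and not the mutation. The vas-GFP flies have the genotype w[*]; TI{TI}vas[AID:EGFP], in which the germline gene vas carries a degron and EGFP tag, and no age was given for any fly. Whole ovaries hold germ cells together with follicle and sheath cells, so that strong accessibility in few cells and weak accessibility in many cannot be told apart. Nothing in the labels says that replicates came from separate cultures, and p-values measure the spread between these libraries.

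In the nucleus of ovarian cells, the Argonaute protein Piwi uses piRNAs to find nascent transposon transcripts and directs their silencing. Asterix (arx), a small zinc-finger protein, binds Piwi; Panoramix (Panx) links the target-bound complex to the general silencing machinery; and Maelstrom (mael) is needed downstream of Piwi. The SUMO ligase Su(var)2-10 connects this complex to Eggless (egg), the SetDB1 methyltransferase of histone H3 lysine 9, and its cofactor Windei (wde). HP1a binds the methylated histone and compacts the chromatin.

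The values are fold enrichments at peak summits, each the ratio of the read pileup to the local background with 1 added to both. They were not scaled between libraries: the median over all peaks of a library was 5.17 to 5.31 in ovaries and 2.32 to 3.68 in OSCs, and the lists held 16588 to 24890 peaks in ovaries and 22037 to 59420 in OSCs. Raw enrichments of ovaries and OSCs are therefore given side by side, with the rank of each peak within its own library. The main tests were made after normalization, and fits without it are given as alternatives. Without scaling, the median difference over all genes, on the log2 scale, was 0.14 for Δl(3)mbt against wild-type OSCs, 0.88 for ovaries against wild-type OSCs and -0.29 for vas-GFP against w1118 ovaries, and orders of raw values given below carry these shifts. After normalization, groups did not overlap in part of the 3865 genes with a summit within 100 bp of a start in every library. Δl(3)mbt values lay above wild-type OSC values in 14.5% of these genes and below them in 12.5%. For vas-GFP against w1118 ovaries the shares were 18.8% and 15.6%. A rank depends on the length of the list it is taken from and is given as a description. Sequencing depth cannot be read from peak lists, but the pileup behind each value could be recovered and ranged from 15 to 422 at the 378 peaks. The l(3)mbt promoter itself was open in all 4 OSC libraries, at 4.01 and 6.30 in Δl(3)mbt and 3.18 and 4.26 in wild-type OSCs, which is no check of a deletion elsewhere in the gene. Of 6 germ cell markers, 6 had a summit within 100 bp of a start site in at least 1 ovary library and 3 in at least 1 OSC library. Another listed marker, nos, was not found by name. Of the 3, ovo had its summit in both Δl(3)mbt libraries and in no wild-type one. The marker vas had one in 3 OSC libraries, wild-type replicate 2 among them, and in 1 ovary library. The only OSC summit of bam was in wild-type replicate 1. Of 6 markers of ovarian somatic cells, 5 had a summit in at least 1 ovary library and 5 in at least 1 OSC library. No marker of these 2 kinds had one in all 4 OSC libraries. Of 3 markers each of muscle, neuron and hemocyte, the ovary numbers were 3, 1 and 1 and the OSC numbers 2, 2 and 1.

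Sequence was taken from the RefSeq dm6 genome for 4 stretches at which peak summits settle, all read 5′ to 3′ in the direction of the silencing gene. The first holds the paired starts of arx and its divergent neighbour CG6843 on chr3L:18901525-18901623, minus strand. The second holds those of HP1a and Ssb-c31a on chr2L:8211093-8211376, minus strand. In both, capitals mark the bases between the outermost summits of the libraries that had the peak, which is where the 2 starts share 1 accessible stretch or stand apart.
arx-CG6843: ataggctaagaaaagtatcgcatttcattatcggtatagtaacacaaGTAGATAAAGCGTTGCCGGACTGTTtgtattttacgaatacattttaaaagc
HP1a-Ssb-c31a: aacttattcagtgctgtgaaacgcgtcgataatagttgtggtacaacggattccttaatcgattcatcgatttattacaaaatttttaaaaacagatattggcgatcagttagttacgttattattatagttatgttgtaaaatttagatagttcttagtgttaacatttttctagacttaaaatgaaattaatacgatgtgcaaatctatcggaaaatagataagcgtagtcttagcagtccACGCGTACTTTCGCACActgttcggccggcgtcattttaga

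The other stretches belong to mael, the gene whose summit lies at different bases in ovaries and OSCs. The first ends 11 bases before its second start (chr3L:22723993-22724222, plus strand), and capitals mark TATAAA on either strand. The second is the 30 bases around the ovary summit (chr3L:22724478-22724507, plus strand), and capitals mark the 3 bases on which the summits of the 5 ovary libraries fell. The stretch before the start held 25.2% G and C and the 30 bases around the summit 63.3%.
mael second start: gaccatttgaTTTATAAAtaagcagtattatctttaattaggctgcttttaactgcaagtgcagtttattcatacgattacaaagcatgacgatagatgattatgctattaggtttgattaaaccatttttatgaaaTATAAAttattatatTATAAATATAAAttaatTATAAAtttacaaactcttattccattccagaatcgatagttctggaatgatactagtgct
mael ovary summit: ctttagtcgctacCTCgctcgcacacgcgc

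To ask whether the genes are open at all in these cells, a promoter was called open where a peak overlapped the 1 kb on either side of a start site. All 7 promoters were open in 8 libraries and 6 of 7 in vas-GFP replicate 3, in which arx had no peak. Among all genes the share was 46.0 to 79.8% per library. Over all 9 libraries 6 of 7 members were open, against 39.7% of all genes and 44.81% of protein-coding genes. A wide window lets in peaks of neighbours, and of the 378 peaks 147 had a start of the silencing gene as the nearest start while 231 lay nearer to another gene. With the summit required within 100 bp of a start site of the gene itself, Panx, wde, Su(var)2-10 and HP1a were open in 9 of 9 libraries, arx in 8, egg in 4 and mael in 3. In all 9 libraries 4 of 7 members were open by that rule, against 21.2% of all genes and 26.25% of protein-coding genes.

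**Figure D1:**
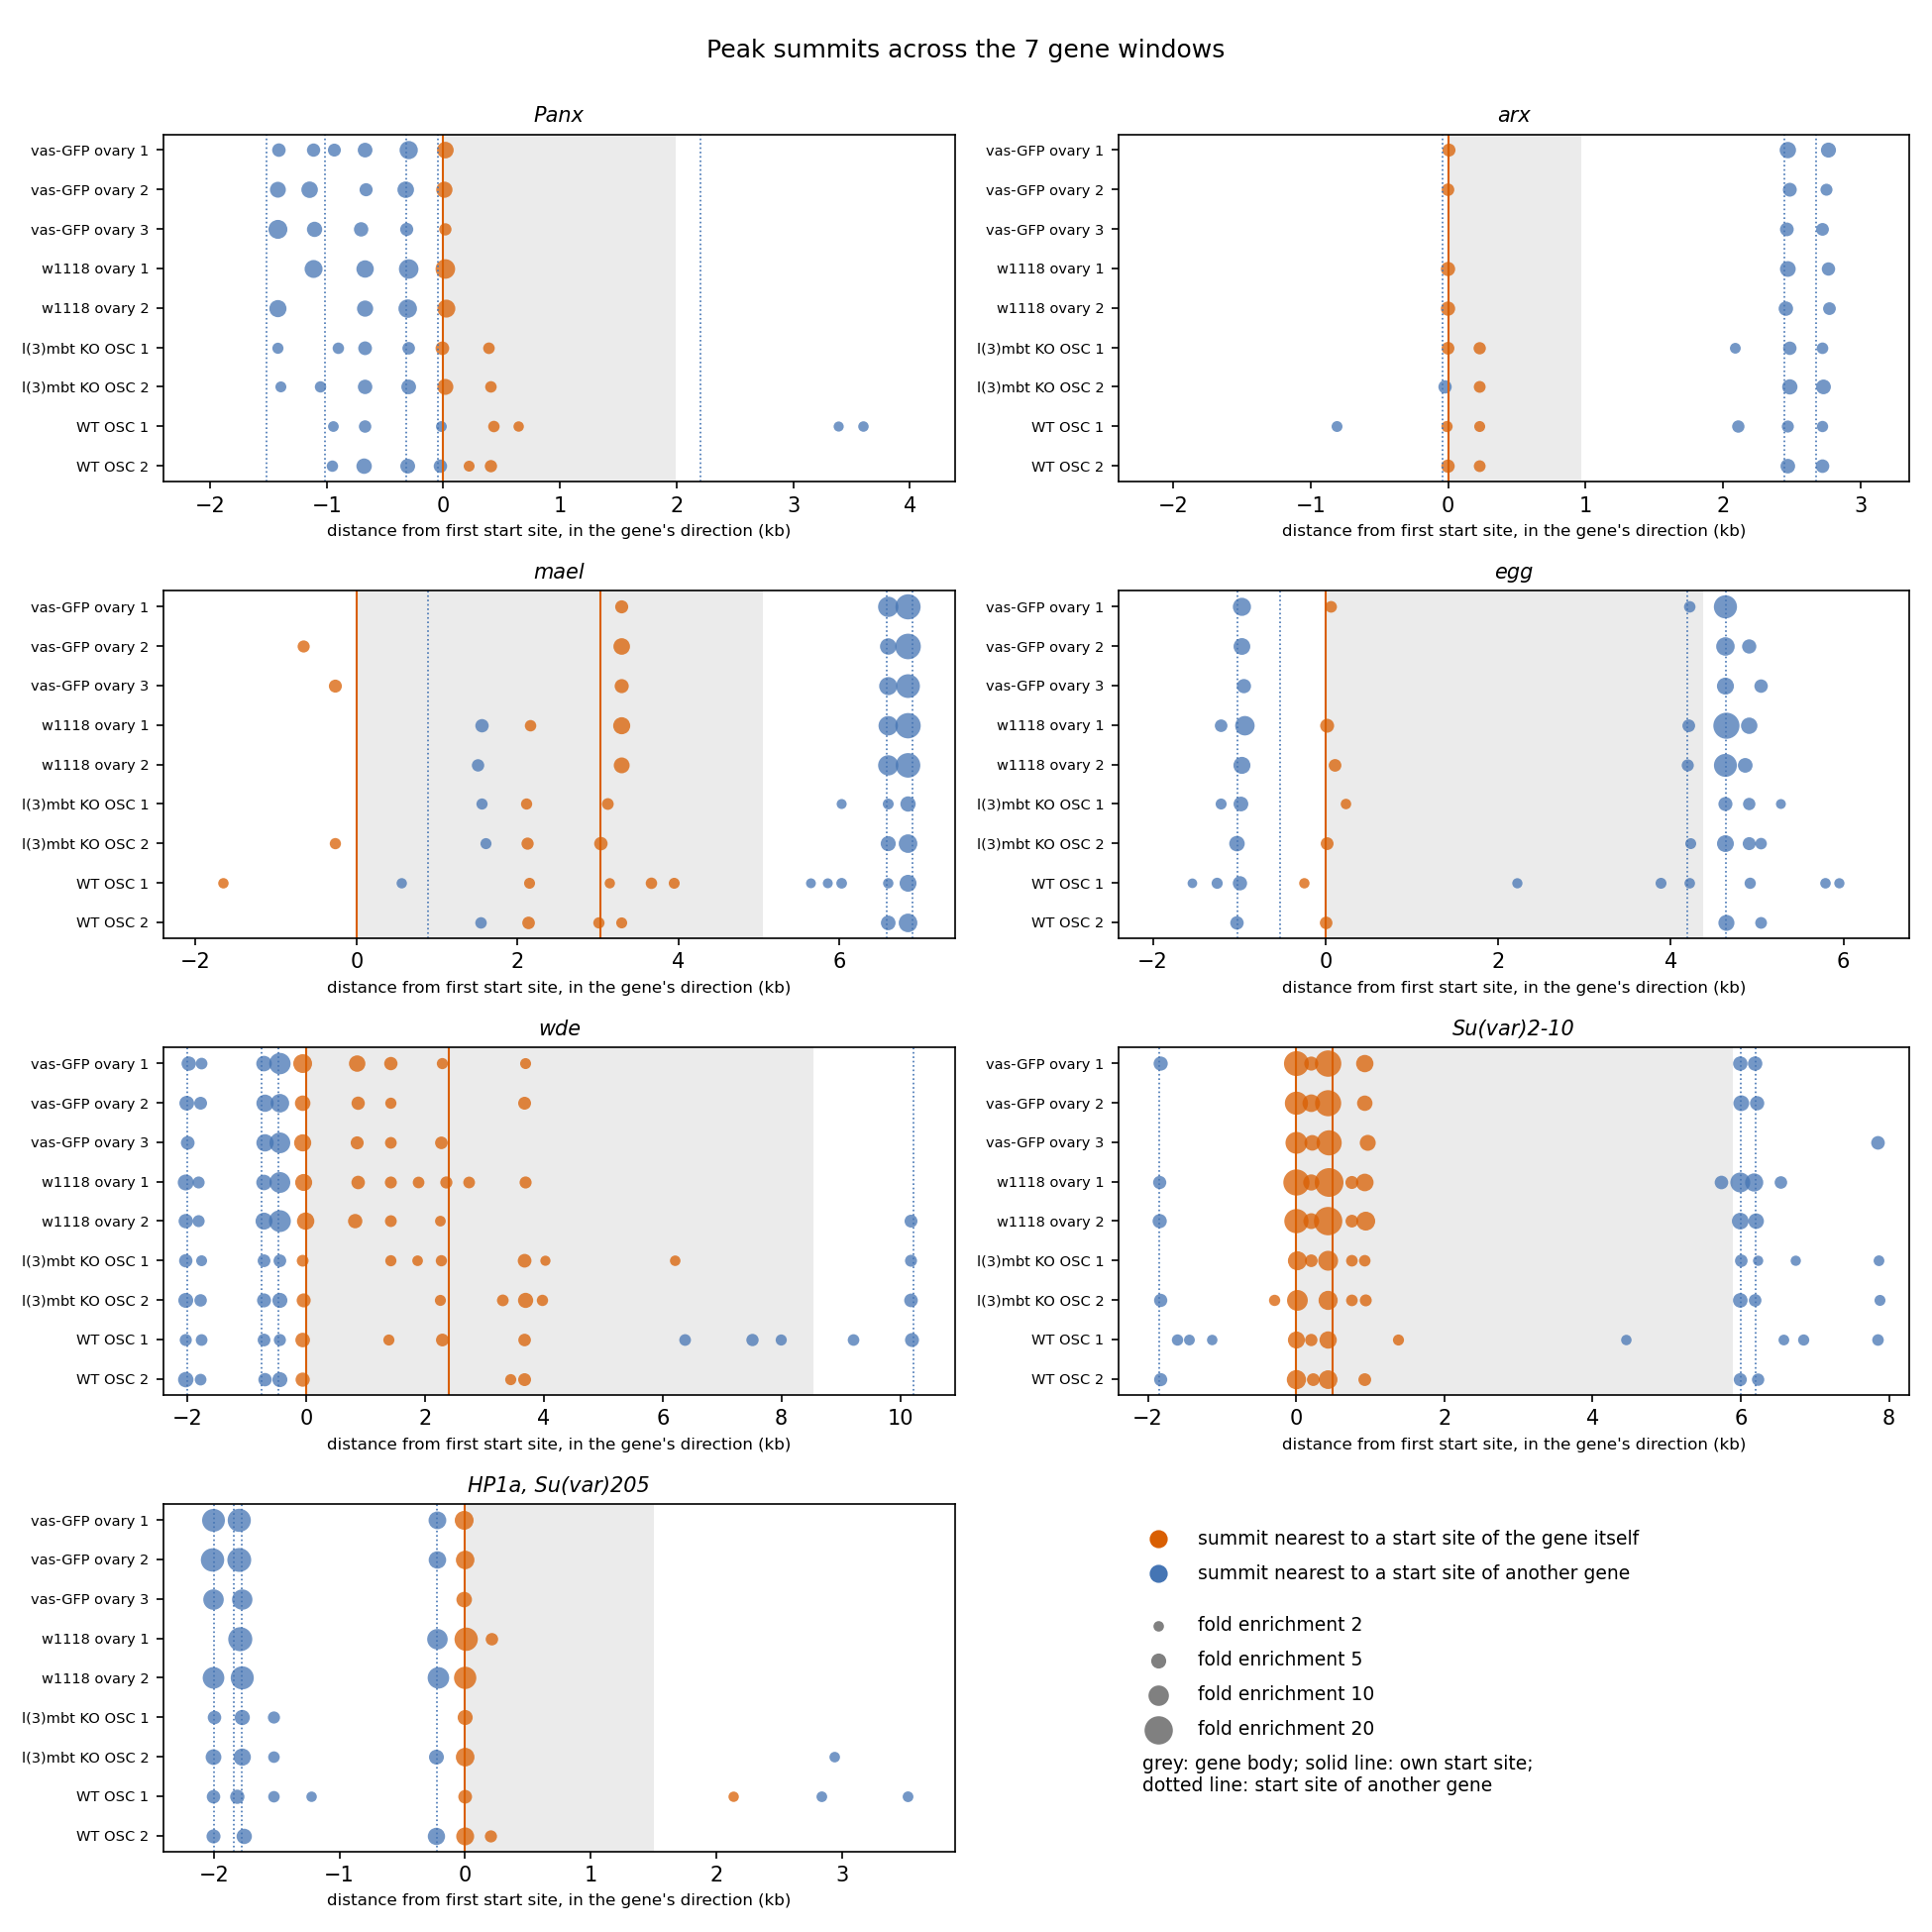
Peak summits in the 9 libraries (rows) along the windows of the 7 genes, by distance in kb from the first start site in the direction of the gene; the area of a point grows with fold enrichment, orange points lie nearest to a start of the gene itself and blue points to another gene's. The points line up in columns at the starts of Panx, arx, wde, Su(var)2-10 and HP1a, no library has one within 100 bp of the first start of mael, and many of the isolated points lie in wild-type OSC replicate 1.

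Chaining summits that lay within 100 bp of each other gave 97 sites in the 7 windows. Of these, 15 had a summit in all 9 libraries, against 6.75% of the 94495 sites of the genome, and 42 had one in a single library, against 52.5% of them. Among the 15, only the sites at the starts of Panx, wde and HP1a and at both starts of Su(var)2-10 lay nearest to the silencing gene. The others, with every such site in the windows of arx, mael and egg, lay nearest to another gene. The share of the genome is over all sites, whether near a start or not. Wild-type OSC replicate 1, the library with the most peaks, held 30 of the 42 single-library sites on its own. Panx had 11 sites, arx 6, mael 15, egg 15, wde 20, Su(var)2-10 19 and HP1a 11. By annotation, the summits of the 378 peaks fell in 5′ UTRs (98), coding sequence (93), introns (78), 3′ UTRs (2) and between genes (107).

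Panx (FBgn0034617, chr2R:21310368-21312354, minus strand) starts 45 bp from the divergent gene CG9485, and 1 site lies at both starts. At this site the fold enrichment was 6.34, 6.02 and 3.06 in vas-GFP ovaries, 9.10 and 7.55 in w1118 ovaries, 3.97 and 5.77 in Δl(3)mbt OSCs, and 2.17 and 3.79 in wild-type OSCs. Both raw Δl(3)mbt values lay above both wild-type OSC values. The raw vas-GFP values lay below the w1118 values, in the direction of the shift over all genes. The pileup behind them was 103 and 94 in Δl(3)mbt OSCs against 67 and 49 in wild-type OSCs, over backgrounds of 25.2 and 15.5 against 30.4 and 12.2.

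In rank, the Panx peak stood at percentiles 78.9 and 77.0 of all peaks in the Δl(3)mbt OSC libraries, with 36659 and 27067 peaks, against 38.9 and 52.2 in wild-type OSCs, with 59420 and 22037 peaks. It stood at 60.2, 59.3 and 7.35 in vas-GFP ovaries, against 77.0 and 69.2 in w1118 ovaries, so that the low value of that group came from the library of 30 ovaries. That library had a pileup of 16 at Panx, over a background of 4.55. A weaker site inside the coding sequence, 402 bp after the start, had enrichments of 2.62 and 2.57 in Δl(3)mbt and 2.54 and 3.07 in wild-type OSCs, and no ovary library had a peak over it.

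arx (FBgn0036826, chr3L:18900595-18901554, minus strand) starts 40 bp from CG6843. Its peak had an enrichment of 3.53 and 3.25 in vas-GFP ovaries (replicates 1 and 2), 4.43 and 4.46 in w1118 ovaries, 3.38 and 3.74 in Δl(3)mbt OSCs, and 2.42 and 3.79 in wild-type OSCs. The summits of 8 libraries lay between 22 bp before and 2 bp after the start of arx, the capitals of the sequence above. The 2 OSC groups overlapped. The arx peak was among the weakest of the 7, at percentiles 15.6 to 41.0 of the ovary libraries that had it and 52.2 to 72.4 of the OSC libraries.

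Inside the coding sequence of arx, 225 bp after the start, a second site had an enrichment of 3.07 and 2.76 in Δl(3)mbt and 2.26 and 2.74 in wild-type OSCs, and again no ovary library had a peak over it. Sites of this kind, with a summit in all 4 OSC libraries and no peak over it in any ovary library, numbered 2 of 97, against 2.37% of all sites. The fold enrichment at each main site is shown by library in the plot that follows.

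**Figure D2:**
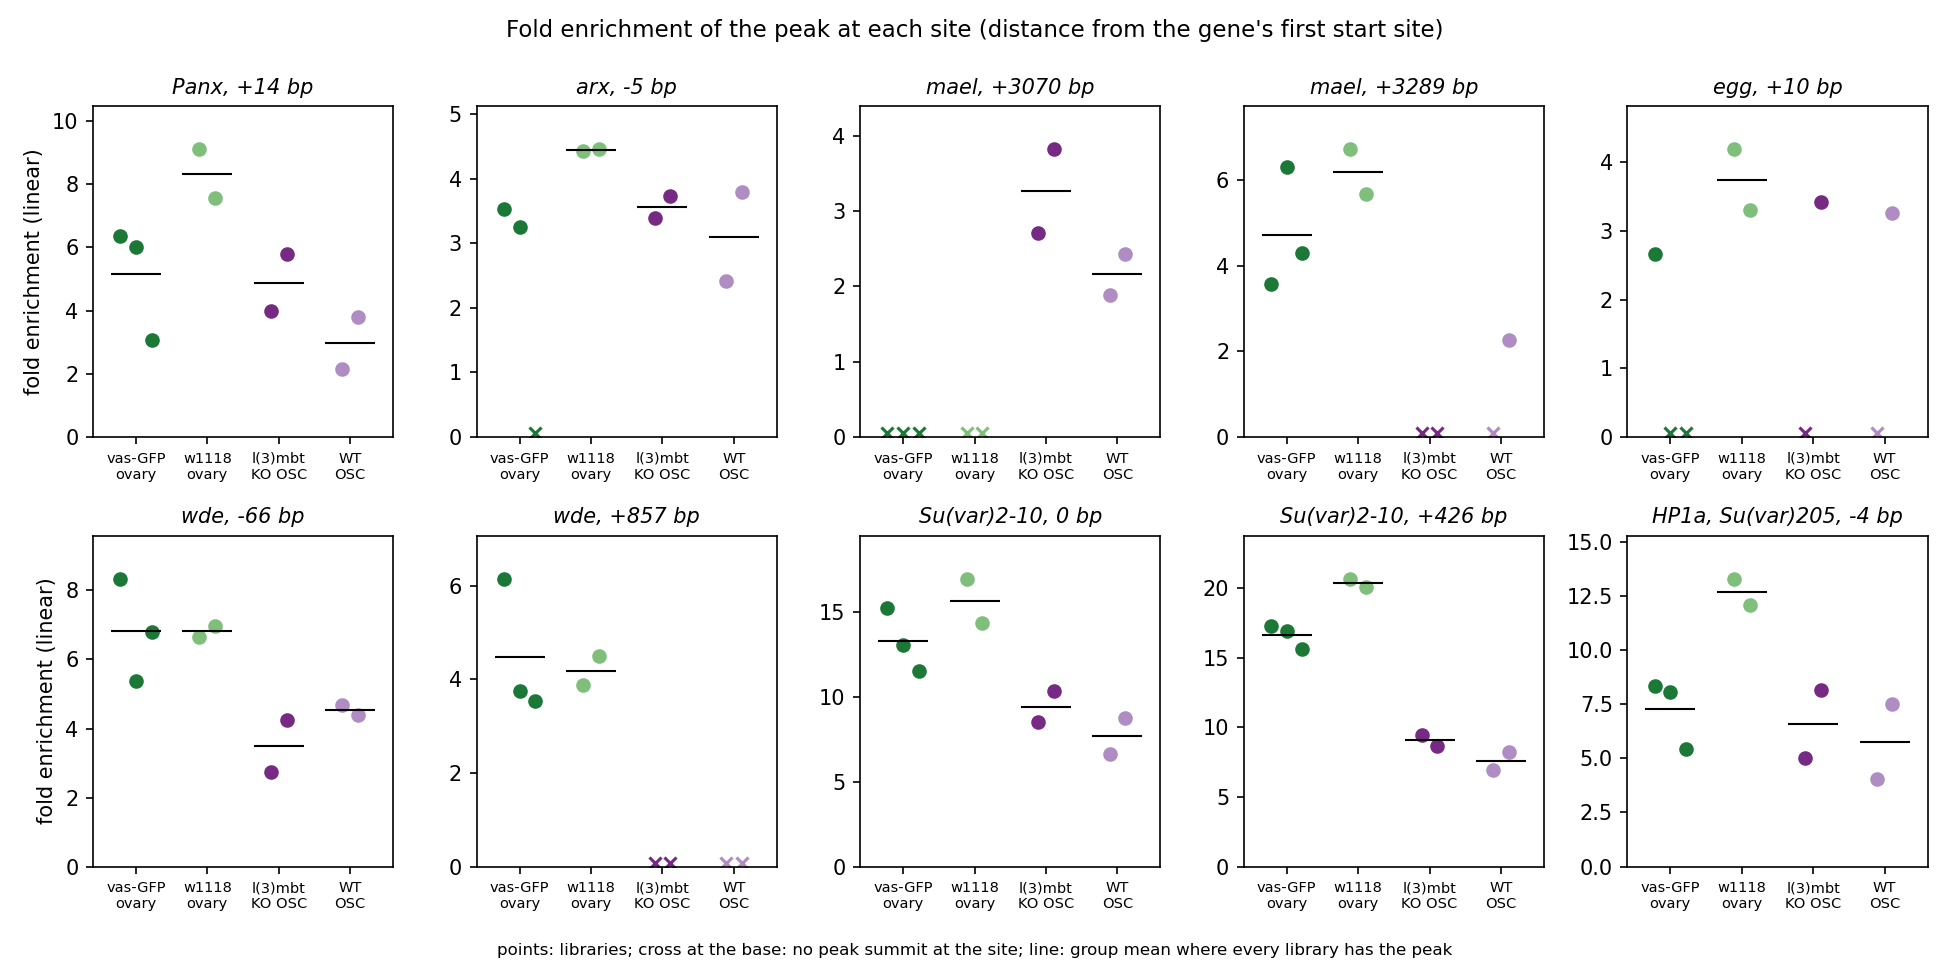
Fold enrichment (linear axis from 0, its range differing between panels) of the peak at 10 sites of the 7 genes, named by distance from the first start site; points are libraries, lines are means of groups in which every library had the peak, and a cross at the base marks a library with no summit there. The 2 sites of Su(var)2-10 reach 11.6 to 20.7 in ovaries, the wde site at +857 bp has points in ovaries alone, and the mael sites at +3070 and +3289 bp divide ovaries from OSCs except for 1 point.

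mael (FBgn0016034, chr3L:22721203-22726234, plus strand) has 2 annotated starts, 3030 bp apart. No library had a summit within 100 bp of the first. In all 5 ovary libraries a summit lay 258 to 260 bp after the second start, within the 5′ UTR, at 3.57, 6.29 and 4.29 in vas-GFP and 6.71 and 5.67 in w1118 ovaries. In 4 of 4 OSC libraries a summit lay 24 bp before to 110 bp after the second start, at 2.71 and 3.82 in Δl(3)mbt and 1.89 and 2.43 in wild-type OSCs, and no ovary library had one there.

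The mael peaks overlapped more than their summits did: peaks of 3 ovary libraries, both of w1118 and vas-GFP replicate 2, also ran over the OSC position, and peaks of all 4 OSC libraries over the ovary position. In both wild-type OSC libraries that was a second, separate peak. In replicate 2 its summit lay 261 bp after the start, at 2.26, next to the ovary position. Both raw Δl(3)mbt values at the start exceeded both wild-type values, an order that was not tested at this site. In the lists called on merged replicates, a summit lay within 100 bp of the second start for neither ovary group, and for Δl(3)mbt OSCs (3.05) and wild-type OSCs (2.03). A site in the first intron, 1552 bp after the first start and nearest to CG14451, had peaks in both w1118 libraries, at 3.78 and 3.12, and in no vas-GFP library; 2 of 97 sites had that pattern, against 1.46% of all sites.

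Su(var)2-10 (FBgn0003612, chr2R:9116122-9122000, plus strand), the SUMO ligase, had the strongest promoter peaks of the 7 genes. It has 2 starts, 496 bp apart. At the first start the enrichment was 15.2, 13.1 and 11.6 in vas-GFP ovaries, 16.99 and 14.4 in w1118 ovaries, 8.53 and 10.4 in Δl(3)mbt OSCs, and 6.67 and 8.79 in wild-type OSCs. The summits of all 9 libraries lay from 1 bp before to 5 bp after the annotated start.

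At the second site of Su(var)2-10, 420 to 432 bp after the first start, the enrichment was 17.3, 16.9 and 15.7 in vas-GFP ovaries, 20.7 and 20.1 in w1118 ovaries, 9.45 and 8.68 in Δl(3)mbt OSCs, and 6.95 and 8.26 in wild-type OSCs. Both raw Δl(3)mbt values lay above both wild-type values here, while at the first start the groups overlapped. Neither site was tested on its own. The percentiles were 97.0 to 98.8 in the ovary libraries and 93.3 to 98.8 in the OSC libraries, so that the peak was among the top 10% of every library. The pileup reached 422 in w1118 replicate 1.

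Between the starts of Su(var)2-10 lay a weaker site, 201 bp after the first start, and another lay 923 bp after it, in the 5′ UTR. The site at 923 bp had an enrichment of 6.97, 5.32 and 5.76 in vas-GFP ovaries, 7.18 and 8.39 in w1118 ovaries, 2.58 and 2.83 in Δl(3)mbt OSCs and, in replicate 2 of wild-type OSCs, 3.37. At 743 bp both Δl(3)mbt libraries, at 2.63 and 2.64, and both w1118 libraries, at 3.52 and 3.36, had a peak, and neither wild-type OSC library nor any vas-GFP library had one. Sites with a summit in both Δl(3)mbt and no peak in either wild-type OSC library numbered 3 of 97, against 1.51% of all sites, and the converse pattern numbered 0 of 97, against 0.629%. The other 2 of the 3 lay 1422 bp before the start of Panx, at a start of CG9485, and 3990 bp after that of wde, in coding sequence.

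egg (FBgn0086908, chr2R:24775534-24779901, minus strand), the H3K9 methyltransferase, had a start peak in some libraries only. A summit lay 0 to 102 bp after its start in 5 libraries, at 2.67 in vas-GFP replicate 1, 4.19 and 3.30 in w1118 ovaries, 3.41 in Δl(3)mbt replicate 2 and 3.27 in wild-type OSC replicate 2. At these 5 summits the pileups were 22 to 66, over backgrounds of 6.88 to 18.6, and the percentiles 6.94 to 46.4, below the median of each list. The other 4 libraries had no summit at that site. Among them, wild-type OSC replicate 1 had a summit 249 bp before the start and Δl(3)mbt replicate 1 had one 236 bp after it. A peak overlapped the 0.2 kb on either side of the start in 7 libraries, all OSC libraries included.

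The larger peaks of the egg window belong to other starts. The peak of CG3594, 976 bp before egg, had an enrichment of 7.69, 6.44 and 4.43 in vas-GFP ovaries, 9.002 and 6.69 in w1118 ovaries, 4.79 and 5.39 in Δl(3)mbt OSCs, and 4.44 and 3.82 in wild-type OSCs. It reaches the 1 kb window of egg and supplied its value there in all 9 libraries, so that egg and CG3594 had the same promoter values. Past the 3′ end of egg, the peak at the start of Eps-15 reached 16.98 in w1118 replicate 1.

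wde (FBgn0027499, chr2R:10800420-10808938, minus strand), the cofactor of Eggless, starts 459 bp from the divergent gene CG12935, and here the 2 starts had peaks of their own. The site 66 bp before wde had an enrichment of 8.34, 5.37 and 6.79 in vas-GFP ovaries, 6.66 and 6.99 in w1118 ovaries, 2.75 and 4.24 in Δl(3)mbt OSCs, and 4.67 and 4.39 in wild-type OSCs. Both Δl(3)mbt values lay below both wild-type OSC values, with pileups of 106 and 127 against 157 and 87. The 2 ovary groups overlapped. The site at CG12935 had 11.1, 8.14 and 10.4 in vas-GFP ovaries, 10.5 and 11.6 in w1118 ovaries, 3.32 and 5.02 in Δl(3)mbt OSCs, and 2.92 and 4.99 in wild-type OSCs.

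In an intron of wde, 857 bp after the start, all 5 ovary libraries had a peak, at 6.15, 3.75 and 3.54 in vas-GFP and 3.88 and 4.49 in w1118 ovaries, and no OSC library had one over it. This was the only such site among the 97 (1 of 97, against 1.78% of all sites). The pileups were 104, 41 and 29 in vas-GFP and 89 and 68 in w1118 ovaries, and the percentiles 17.4 to 58.7. The second start of wde, 2401 bp after the first, had no site with a summit in all 9 libraries. A site in coding sequence 3673 bp after the first start had peaks in 3 of 5 ovary libraries, at 2.25 to 3.45, and in all 4 OSC libraries, at 4.001 and 5.13 in Δl(3)mbt and 3.25 and 3.44 in wild-type OSCs.

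The HP1a gene (FBgn0003607, chr2L:8209626-8211122, minus strand) starts 225 bp from Ssb-c31a. Its site had an enrichment of 8.36, 8.08 and 5.43 in vas-GFP ovaries, 13.3 and 12.1 in w1118 ovaries, 5.03 and 8.16 in Δl(3)mbt OSCs, and 4.04 and 7.49 in wild-type OSCs. The raw vas-GFP values lay below the w1118 values, and the 2 OSC groups overlapped. The summits of all 9 libraries fell within the 17 bases in capitals in the sequence above. Ssb-c31a had a summit of its own in 6 libraries, at 7.32 and 7.09 in vas-GFP, 10.1 and 11.2 in w1118 ovaries, 4.92 in Δl(3)mbt replicate 2 and 6.91 in wild-type OSC replicate 2.

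**Figure D3:**
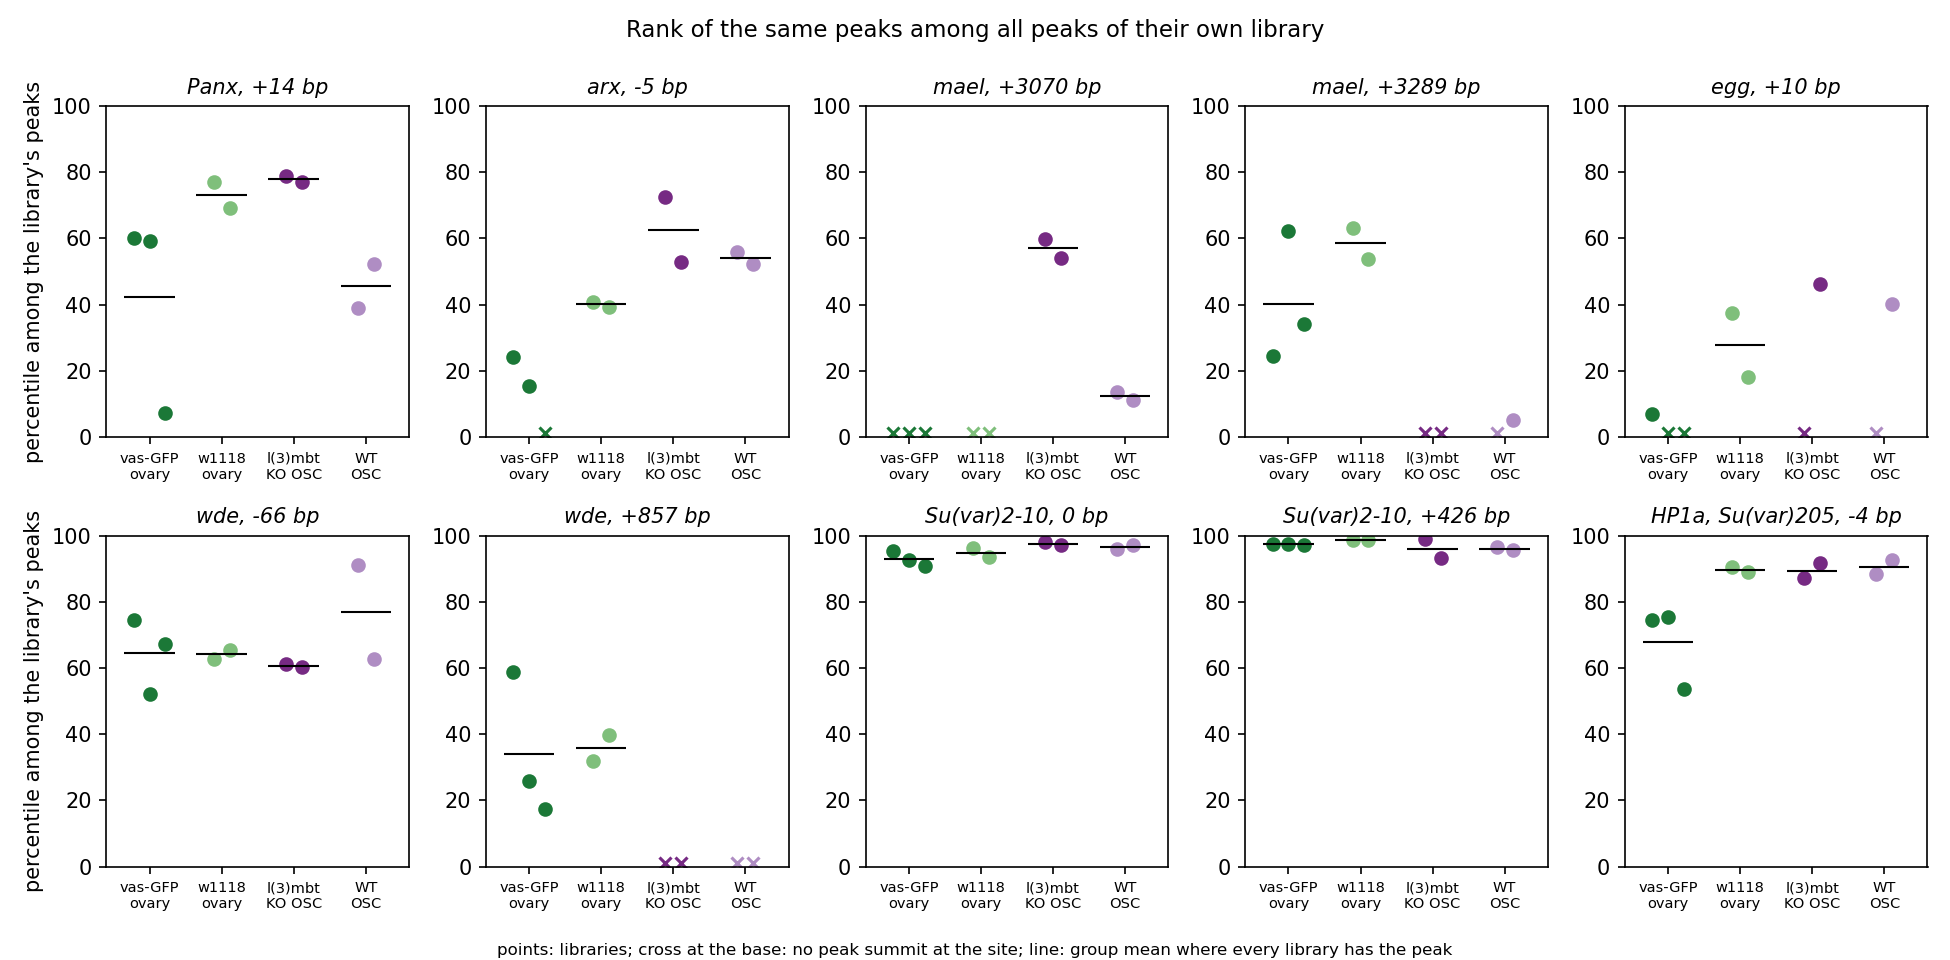
Rank of the same peaks as a percentile among all peaks of their own library (axis from 0 to 100), with groups and symbols as in the plot of fold enrichment. Su(var)2-10 stays above 90 in every library, Panx falls to 7.35 in the vas-GFP library of 30 ovaries, and arx lies at 15.6 to 41.0 in the ovary libraries that had its peak.

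Across the genes, vas-GFP replicate 3, made from 30 ovaries, had the shortest list and the lowest median pileup (32.0 over sampled peaks, against 37.0 and 50 in the other vas-GFP libraries and 68.0 and 51.0 in w1118 ovaries). It lacked the arx peak and, with vas-GFP replicate 2, a summit at the start of egg. It had the lowest vas-GFP value at Panx, both sites of Su(var)2-10, HP1a and the intron site of wde (3.54). At the start of wde, replicate 2 was lower than replicate 3 (5.37 against 6.79). At the ovary summit of mael, replicate 1 was lower than replicate 3 (3.57 against 4.29). The part of input or depth in these values was not tested, since the number of ovaries and the library are the same thing here.

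Promoters were next compared with limma, over the 7248 genes that had a peak within 1 kb of a start in all 9 libraries, on quantile-normalized log2 enrichment of the highest such peak, which can be a neighbour's. The 6 members with such a value were tested; arx was not, for want of a peak in vas-GFP replicate 3. For Δl(3)mbt against wild-type OSCs, none of the 6 members was called at an adjusted p (Benjamini-Hochberg) of 0.05, and none had an unadjusted p under 0.05. Of all genes 0.0138% were called (1 gene, and 326 at an unadjusted p under 0.05). The median difference was -0.001 over the 6 members and -0.009 over all genes.

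The largest difference of Δl(3)mbt OSCs among the members was that of wde, whose normalized log2 values were 2.48 and 2.33 in Δl(3)mbt OSCs, against 2.895 and 2.594 in wild-type OSCs. The groups did not overlap, and the difference was -0.34 ± 0.21 (SE, limma, adjusted p = 0.997). These values come from different peaks: the site 3673 bp after the start in Δl(3)mbt replicate 1, the CG12935 peak in Δl(3)mbt replicate 2 and wild-type replicate 2, and the start peak of wde in wild-type replicate 1. Of the 6 members 1 was lower without overlap, against 12.1% of all genes, and 0 were higher without overlap, against 13.7%. Su(var)2-10 differed by 0.22 ± 0.18, egg by 0.14 ± 0.24, Panx by 0.00 ± 0.18, mael by -0.01 ± 0.25 and HP1a by 0.00 ± 0.23 (SE, limma, adjusted p = 0.997 to 1). The mael value came from a coding-sequence peak 3658 bp after the first start in wild-type replicate 1. In wild-type replicate 2 it was an intron peak at 2135 bp, and in both Δl(3)mbt libraries the peak at the second start. The Panx value was a CG9485 peak 679 bp before Panx, except for the start peak in Δl(3)mbt replicate 2. Su(var)2-10 was read at its second site in replicate 1 of both groups and at its first start in replicate 2.

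With the summit required within 100 bp of a start, a rule added after the data were seen because of the neighbours' peaks, 3865 genes and 4 of the members could be compared. Panx had normalized log2 values of 2.48 and 2.55 in Δl(3)mbt OSCs, against 1.85 and 2.04 in wild-type OSCs. The difference was 0.57 ± 0.23 (SE, limma, adjusted p = 0.982). wde had 1.87 and 2.02 in Δl(3)mbt OSCs, against 2.96 and 2.30 in wild-type OSCs, a difference of -0.69 ± 0.24 (SE, limma, adjusted p = 0.982). Groups without overlap were found in 14.5% of all genes in the direction of Panx and in 12.5% in that of wde, so that 1 member of 4 in each direction is not set apart by this. No gene of the 3865 was called (173 at an unadjusted p under 0.05, Panx and wde among them).

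For ovaries against wild-type OSCs, with both ovary groups weighted equally, 16.2% of all genes were called, 7.46% higher and 8.71% lower in ovaries. None of the 6 members was among them or had an unadjusted p under 0.05, and 4 of the 6 differences were positive. The medians were 0.10 over the members and 0.01 over all genes. Su(var)2-10 had normalized log2 values of 3.72, 3.75 and 3.75 in vas-GFP and 3.82 and 3.87 in w1118 ovaries, against 3.37 and 3.70 in wild-type OSCs, and was the 1 member of 6 whose groups did not overlap in the higher direction, against 15.2% of all genes. Its difference was 0.25 ± 0.15 (SE, limma, adjusted p = 0.265). These values were those of its second site in ovaries and wild-type replicate 1, and of its first start in wild-type replicate 2. In the lower direction the groups of 0 members did not overlap, against 15.8% of all genes.

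The other differences between ovaries and wild-type OSCs were 0.25 ± 0.17 for wde, 0.20 ± 0.21 for mael, 0.01 ± 0.15 for Panx, -0.02 ± 0.20 for egg and -0.14 ± 0.20 for HP1a (SE, limma, adjusted p = 0.353 to 0.98). The wde value came from the CG12935 peak in ovaries. The Panx value came from CG9485 peaks in wild-type OSCs and in every ovary library except w1118 replicate 1, where it was the start peak. In ovaries the mael value was the peak 3289 bp after its first start, and in wild-type OSCs the other peaks named above. At its own start wde differed by -0.20 ± 0.20 (adjusted p = 0.551), and with all 4 OSC libraries as the reference the 1 kb value was 0.42 (limma, adjusted p = 0.044). At their own starts Panx differed by 0.38 ± 0.20 (SE, limma, adjusted p = 0.231) and 0 of 4 members were called, against 8.67% of all genes (3.96% higher and 4.71% lower). Su(var)2-10 was again the 1 member, here of 4, whose groups did not overlap in the higher direction, against 13.6% of all genes. Its values again came from the same mix of its first start and second site. In the lower direction the groups of 0 members did not overlap, against 14.4% of all genes.

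For vas-GFP against w1118 ovaries, 0 of 6 members and 0% of all genes were called (750 genes, and none of the members, at an unadjusted p under 0.05). The member with the largest difference was HP1a, with normalized log2 values of 2.69, 2.81 and 2.55 in vas-GFP ovaries, against 3.13 and 3.12 in w1118 ovaries. The difference was -0.45 ± 0.21 (SE, limma, adjusted p = 0.497). Its groups and those of Su(var)2-10 did not overlap, 2 of 6 members in the lower direction, against 17.9% of all genes. In the higher direction it was 0 of 6, against 20.7%. The remaining differences were from -0.10 to 0.13. At their own starts HP1a differed by -0.387 ± 0.204, Panx by -0.342 ± 0.214, wde by 0.347 ± 0.22 and Su(var)2-10 by -0.042 ± 0.165 (SE, limma, adjusted p = 0.726 to 0.962). By that rule 0 of 4 members and 0 of 3865 genes were called. HP1a was the 1 member of 4 whose groups did not overlap in the lower direction, against 15.6% of all genes. In the higher direction it was 0 of 4, against 18.8%.

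**Figure D4:**
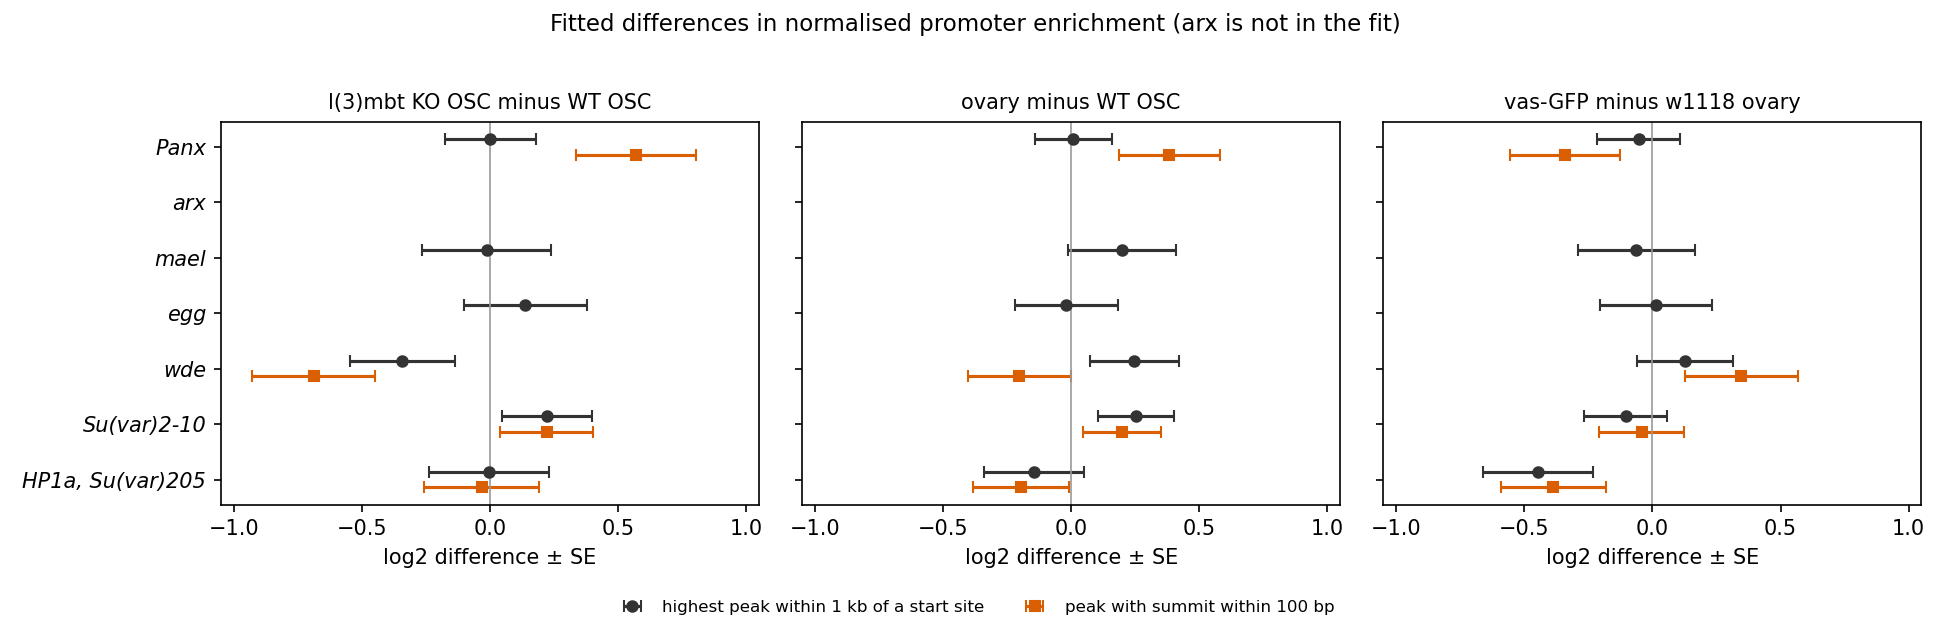
Differences in normalized log2 promoter enrichment with their standard errors for the members that could be fitted, by limma over 9 libraries, in 3 comparisons; black points use the highest peak within 1 kb of a start and orange squares the peak with its summit within 100 bp. The differences lie between -0.69 and 0.57, and none has an adjusted p under 0.05.

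arx could be fitted once vas-GFP replicate 3 was left out, over 7935 genes. It differed by 0.06 between Δl(3)mbt and wild-type OSCs (adjusted p = 0.988), by -0.27 between ovaries and wild-type OSCs (adjusted p = 0.28) and by -0.20 between vas-GFP and w1118 ovaries (limma, adjusted p = 0.921). With all libraries and no filter, absent peaks being set to 1, the values were 0.77, 0.14, of the opposite sign, and -0.58 (limma, adjusted p = 0.822, 0.948 and 0.997).

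To set the members beside their partners, 20 genes were listed that act with them, among them Piwi itself, the Panoramix partners nxf2, Nxt1 and ctp, the SUMO pathway, the Mi-2 remodeler, histone demethylase and deacetylase subunits and the other histone methyltransferases and HP1 proteins. The annotation held 19 of them by these names, and 15 had a promoter peak in all 9 libraries. None was called for Δl(3)mbt against wild-type OSCs, where the median was -0.04, or for vas-GFP against w1118 ovaries, where it was 0.11. For ovaries against wild-type OSCs 1 of 15 was called higher, against 7.46% of all genes, and 1 lower, against 8.71%, with a median of -0.15. These shares are near those of all genes.

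The partner that rose was lwr, the SUMO-conjugating enzyme, with enrichments of 8.04, 7.19 and 5.78 in vas-GFP and 5.54 and 7.66 in w1118 ovaries, against 2.11 and 3.24 in wild-type OSCs, and a normalized difference of 0.69 ± 0.17 (SE, limma, adjusted p = 0.0174). With median centring it was 0.48 (adjusted p = 0.0964). The one that fell was G9a, an H3K9 methyltransferase, with 16.1, 16.6 and 12.05 in vas-GFP and 15.2 and 16.8 in w1118 ovaries, against 12.7 and 12.4 in wild-type OSCs, and a normalized difference of -0.62 ± 0.16 (SE, limma, adjusted p = 0.0203). Without scaling between libraries the G9a difference was 0.29, the opposite sign, where the median over all genes was 0.88. Piwi had 8.58, 7.47 and 5.86 in vas-GFP and 14.1 and 12.2 in w1118 ovaries, 5.21 and 7.40 in Δl(3)mbt OSCs, and 4.11 and 5.86 in wild-type OSCs.

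The promoter pattern most like that of each member, by the root mean square difference of normalized log2 values over 9 libraries among 7238 genes, was that of CG9646 for Panx (0.10), CG12134 for mael (0.17), CG3594 for egg (0.00, the shared peak), REPTOR and CG7668, level with each other, for wde (0.16), Cdk12 for Su(var)2-10 (0.07) and Usp20-33 and Snrk, also level, for HP1a (0.14).

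The promoters, from 250 bases before to 50 after each of the 10 member starts, were searched on both strands for 5 motifs. The DRE, TATCGATA, which the factor Dref binds, was found at 2 of 10 starts, 24 bases before Panx and 74 before arx, and in 6.78% of all 24111 promoters. Motif 1, searched by its core GGTCACACT, lay 90 bases before the second start of Su(var)2-10, and was in 4.37% of all promoters. CCGTTA, a motif of the germline factor Ovo, lay 87 bases before the first start of Su(var)2-10 and was in 8.12% of all promoters. The looser CNGTTA, which includes it, was found at 7 of 10 starts and in 36.9% of all promoters. TATAAA was found at 4 of 10 starts and in 41.3% of all promoters, with 6 matches before the second start of mael, some of them overlapping.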

How the data were processed

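The authors trimmed paired reads with cutadapt 1.18, aligned them to dm6 with BWA, marked duplicates with Picard 2.9.0, filtered with SAMtools 1.9 and called peaks with MACS2 2.1.1.20160309 (reads shifted and extended around the insertion, q of at most 0.05), per library and on merged replicates. The deposited lists hold each peak's position, summit, fold enrichment (a ratio, not scaled between libraries), −log10 p-value and −log10 q-value, and a score equal to 10 times the −log10 q, which was not used. The authors' deposited DiffBind table holds log2 folds and FDRs of their own comparison and was not used. Peak names inside the second wild-type and second Δl(3)mbt OSC lists carry other replicate numbers (OSC_rep3 and l3mbt_rep4), and libraries were named by their sample labels.

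The 9 libraries fell into 4 groups by label. Start sites came from Ensembl release 115 on the same assembly, and coordinates are 1-based. Named genes were the members, genes whose start is nearest to a peak in a member's window, 20 listed partners and the closest pattern to each member. The members and lists were chosen with earlier results of these data known. Fits used limma 3.58.1 (R 4.3.3) over all 4 groups and were tested on simulated data with 200 shifted genes. Peak caller pileups were recovered from fold enrichment and p-value under a Poisson model, and came out whole within 0.02 at 378 of 378 member peaks. Alternatives covered the promoter width, scaling, filter, peak threshold, reference and each library left out.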

Additional observations from a re-analysis of the deposited data

How the results depend on the processing

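Counts of called genes moved with the settings, and no member was called under most of them. For Δl(3)mbt against wild-type OSCs, 1 gene was called as reported, 3 with promoters of 0.2 kb, 0 with median centring, 0 with no normalization, 160 with no filter (absent peaks set to 1), 2 with −log10 q in place of fold enrichment, 0 with only the groups compared and 0 with summits within 100 bp. With the replicate block it was 110. The labels give the 2 replicates of these groups a number and no shared batch, and over 7248 genes the deviations of same-numbered libraries correlated at 0.539. For ovaries against wild-type OSCs, 759 genes were called with 0.2 kb, 5695 with no normalization, 2102 with no filter, 335 with summits within 100 bp and 1904 with all OSCs as the reference, against 1172. For vas-GFP against w1118 ovaries, 3 were called with median centring, 59 with no filter and 10 with −log10 q, against 0. Leaving out 1 library gave 0 to 10 calls for Δl(3)mbt against wild-type OSCs (10 and 6 without wild-type OSC replicates 1 and 2, 0 without any other library), 625 to 1681 for ovaries against wild-type OSCs (631 and 625 without w1118 replicates 1 and 2, 780 without wild-type OSC replicate 1) and 0 to 3 for vas-GFP against w1118 ovaries (3 without wild-type OSC replicate 1). Of the peaks in the 7 windows, 165 lay on gene bodies alone and 250 had a −log10 q of at least 10, against 378; leaving out 1 library gave 312 to 349.

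Member differences that changed sign, none of them called as reported, follow. Between Δl(3)mbt and wild-type OSCs, HP1a was 0.047 with median centring, 0.219 with no normalization, 0.011 with no filter and 0.045 with −log10 q; mael was 0.159 with no normalization, 0.636 with no filter and 0.139 with −log10 q; and Panx was -0.157 with −log10 q. Between ovaries and wild-type OSCs, wde was -0.189 with 0.2 kb and -0.202 with summits within 100 bp; Panx was -0.043 with median centring and -0.168 with −log10 q; mael was -0.002 with median centring; egg was 0.733 with no normalization and 0.002 with no filter; and HP1a was 0.792 with no normalization and 0.078 with w1118 ovaries only. Between vas-GFP and w1118 ovaries, egg was -0.048 with median centring and -0.364 with no normalization, Su(var)2-10 0.019 with median centring, wde -0.174 with no normalization and -0.115 with −log10 q, and Panx 0.097 with −log10 q.

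Members were called in 8 of 294 fits: all 6 with no normalization for ovaries against wild-type OSCs, where the median over all genes was 0.877, and wde there with −log10 q (limma, adjusted p = 0.0472) and with all OSCs as the reference (adjusted p = 0.044). With 1 library left out, no member was called and the sign changed in 19 of 162 fits. The ranges for Δl(3)mbt against wild-type OSCs were -0.183 to 0.195 for Panx, -0.343 to 0.349 for HP1a, -0.220 to 0.494 for egg and -0.039 to 0.029 for mael; for ovaries against wild-type OSCs -0.182 to 0.180 for Panx, -0.484 to 0.193 for HP1a and -0.405 to 0.331 for egg; and for vas-GFP against w1118 ovaries -0.119 to 0.147 for egg, -0.255 to 0.198 for mael and -0.013 to 0.268 for wde. The cause of these changes was not tested. Peak lists hold no value where no peak was called, so that a missing peak is no measure of closed chromatin, and depth is known only as the pileup at peaks.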
